A study of Homo sapiens with 12 samples.

Results

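The genes of core lipogenesis, the cytosolic route from citrate to palmitate, were followed probe by probe in HepG2 cells kept in high or low glucose. The set held 10 genes, ACLY, ACACA, ACACB, FASN, ACSS2, SLC25A1, ME1, MID1IP1, THRSP and MLYCD, chosen with earlier results of these data known. Its probes were taken by name: every probe whose platform symbol, current or older, was that of a member was taken. This gave 17 probes of the 48803 on the array, or 10 of 18852 genes with a named probe. At 2 further probes an older name of a member (CIC for SLC25A1, FAS for FASN) was the symbol of another gene, and these were left out.

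HepG2 is a human hepatocellular carcinoma line that makes many liver proteins and has been used widely to study glucose-regulated transcription. The cells were maintained in medium with 25 mM glucose, moved to 2.7 mM glucose for 16 h, and then cultured for 8 h in high glucose (25 mM) or in low glucose, which is 2.7 mM in the sample labels and 0 mM in the study's methods. RNA of 6 cultures of each group was hybridised to Illumina HumanHT-12 BeadChips, 12 arrays in all, to find genes that respond to glucose. No array was made at the start of the 8 h, so a member called higher below differed between the groups and was not followed over time, and HepG2 is a single tumour line, so no value speaks for other hepatocytes.

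In lipogenesis, citrate leaves the mitochondrion and is cleaved in the cytosol to acetyl-CoA, which acetyl-CoA carboxylase converts to malonyl-CoA. Fatty acid synthase joins malonyl-CoA units to an acetyl primer and reduces them with NADPH until palmitate is released. In liver the pathway turns excess carbohydrate into fat, and its genes are known targets of SREBP-1c (encoded by SREBF1), which acts downstream of insulin, and of ChREBP (encoded by MLXIPL), a transcription factor that responds to glucose metabolites.

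The bases before the gene starts are shown for 5 of the members that were higher in high glucose, as examples of the letters searched. The RefSeq promoter table (GRCh38.p14) held 14 starts of 9 members, and FASN was not among them. The 250 bases before each start were searched on both strands. The letters CCAAT, the box bound by NF-Y, lay before 10 of the 14 member starts, in 8 of 9 genes, against 32% of all 35116 starts. These 8 included ACACB, whose stretch is not printed, and THRSP and MLYCD, which did not pass the test below. The letters GGGCGG, a GC box of the SP1 family, lay before 11 of 14 starts, in 8 of 9 genes, against 42.6% of all starts. The starts of ACLY lie close together and share their CCAAT boxes and most GC boxes, so these matches are counted more than once. The shares of all starts are per start, and no share per gene was computed. The palindromic E-box CACGTG, found before 6.34% of all starts, lay before 0 of 14. The ChREBP motif of the study pairs a perfect with an imperfect E-box and was not searched here. By ChIP the study found ChREBP bound at sites of FASN and MID1IP1, so the E-box count does not speak for ChREBP binding. TCACNCCAC, the letters of a sterol regulatory element, lay before 1 of 14 starts, that of MID1IP1, and before 0.883% of all starts. No searched motif contains another. In the stretches below, written 5′ to 3′ on the strand of the gene, capitals mark CCAAT or its reverse complement ATTGG, and in MID1IP1 also the sterol element on the other strand.
ACLY, chr17:41919023-41919070, minus strand: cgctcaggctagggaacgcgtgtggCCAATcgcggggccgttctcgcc
ACACA, chr17:37359293-37359346, minus strand: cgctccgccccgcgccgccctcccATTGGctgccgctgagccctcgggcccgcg
ACSS2, chr20:34874841-34874895, plus strand: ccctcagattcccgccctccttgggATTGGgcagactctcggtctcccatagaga
SLC25A1, chr22:19178892-19178946, minus strand: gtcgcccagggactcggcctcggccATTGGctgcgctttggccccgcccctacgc
MID1IP1, chrX:38801382-38801448, plus strand: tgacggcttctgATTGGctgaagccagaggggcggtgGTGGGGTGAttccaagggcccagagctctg
The ACLY stretch ends at the base before the start, and that of MID1IP1 ends 11 bases before it. The stretches of SLC25A1 and ACSS2 end 156 and 94 bases before their starts, and that of ACACA 197 bases before it. ACLY, ACACA and ACSS2 each had more than 1 start in the table, and the stretch of a single start is given. These matches are of letters only, and binding was not measured on these arrays.

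Core lipogenesis genes were higher in high glucose, and none was lower. Of the 17 probes, 12 were higher at an adjusted p under 0.05 (limma over all 48803 probes, Benjamini-Hochberg), 0 were lower and the other 5 failed the test, while 8.77% of all probes were higher and 7.43% were lower. The median log2 change of the 17 probes was 0.30, with a range of 0.04 to 0.52, against a median of 0.0 over all probes. With each gene taken by its brightest probe, 7 of 10 genes were higher (ACLY, ACSS2, SLC25A1, MID1IP1, ACACB, FASN and ACACA), and ME1, THRSP and MLYCD did not pass. Of all named genes taken this way, 15.4% were higher and 12.2% were lower, 27.6% in all. The members were chosen with earlier results of these data known, so these shares serve as description only. The changes were modest, and no member reached a 1.5-fold difference in the deposited values, in which background was not subtracted. After normexp background correction only the MID1IP1 probe ILMN_2165473 passed that size (log2 0.61, limma adjusted p = 0.0039). In RNA of whole cultures, fewer cells that express a gene and less of its RNA per cell cannot be told apart, and the p-values measure the spread between these arrays.

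**Figure D1:**
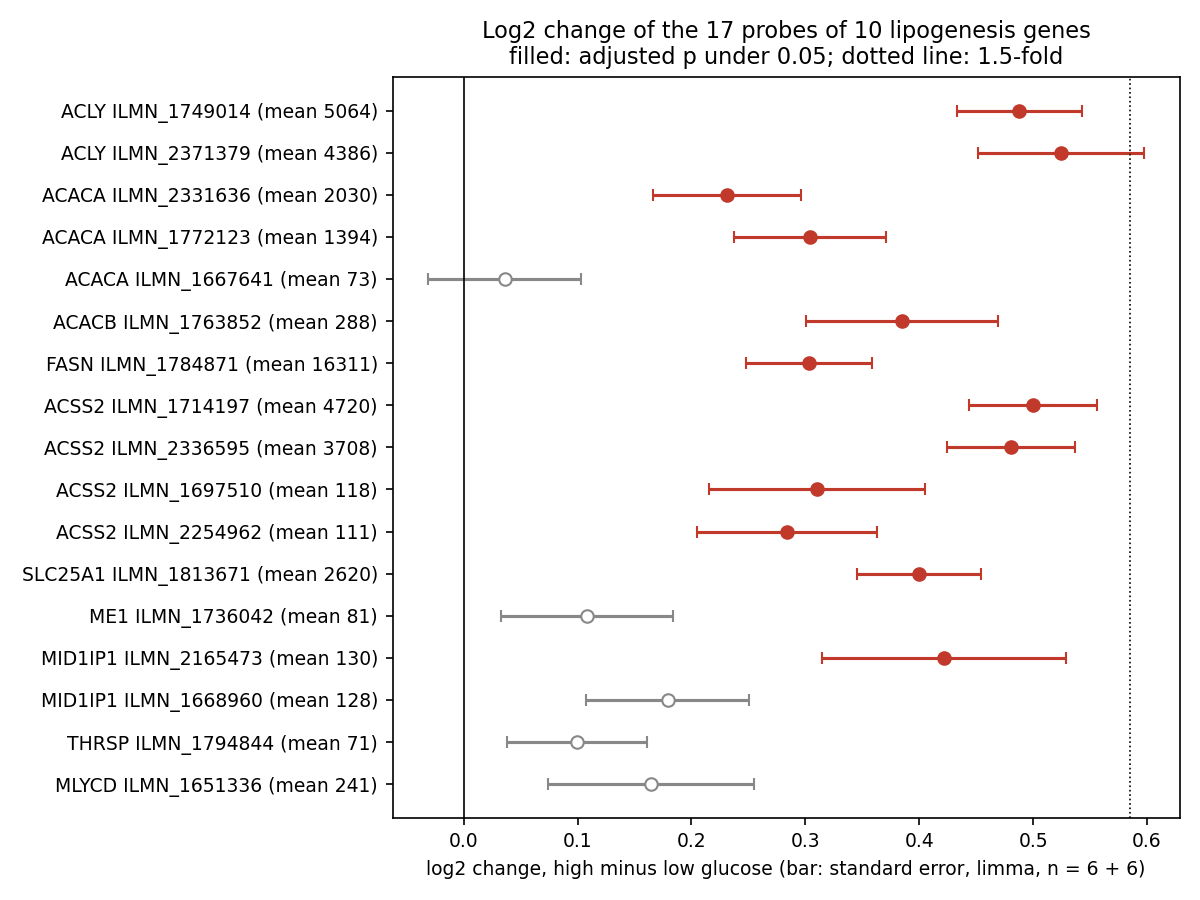
Log2 change (x axis, high minus low glucose) of each of the 17 probes, with the standard error of the limma fit as bars and the mean intensity over the 12 arrays beside the name. The 12 filled points passed at an adjusted p under 0.05 and all lie to the right of 0, and every point lies to the left of the dotted line at 1.5-fold.

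Calls followed brightness over the whole array, so the members were also read against probes of like intensity. Of the 8 member probes with a mean intensity of 1000 or more, 8 were higher, with a median log2 change of 0.44, whereas of all such probes 29.8% were higher and 24.4% were lower. Of the 6 member probes between 100 and 1000, 4 were higher, against 16.5% higher and 14.2% lower among all such probes. The 3 member probes below 100 did not pass, and in that range 0.68% of all probes were higher and 0.666% were lower. The arrays' median intensity was 90.8 and background had not been subtracted, and the 3 dim probes, 1 each of ACACA, ME1 and THRSP, read below that median.

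Citrate export was represented by SLC25A1 (chr22:19175581-19178736, GRCh38.p14), the mitochondrial carrier that moves citrate out to the cytosol. Its single probe read between 2767 and 3113 on the high-glucose arrays, with a median of 3002, and between 2118 and 2378 on the low-glucose arrays, with a median of 2251. Every high-glucose array lay above every low-glucose array, a separation seen for 5.67% of all probes. The means were 2981 ± 132 and 2259 ± 92.1 (SD of the intensities, n = 6 each), a 1.32-fold difference (log2 0.40, SE 0.05, limma adjusted p = 2.83e-06). Of the members with a probe over 1000, SLC25A1 kept the narrowest range of log2 changes when any single array was left out, 0.38 to 0.42.

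ACLY (chr17:41866917-41930545) encodes ATP citrate lyase, which splits cytosolic citrate into acetyl-CoA and oxaloacetate. At the brighter of its 2 probes, ILMN_1749014, the high-glucose arrays ran from 5387 to 6199 with a median of 6032, and the low-glucose arrays from 3923 to 4721 with a median of 4101. The groups did not overlap. The means of 5909.9 ± 311 and 4218 ± 298 (n = 6 each) differed 1.40-fold (log2 0.49, SE 0.06, limma adjusted p = 1.35e-07). The other probe, ILMN_2371379, read 4561 to 5751 in high glucose with a median of 5185 and 2879 to 4076 in low glucose with a median of 3635, also without overlap. Its change of 1.44-fold (log2 0.52, SE 0.07, limma adjusted p = 3.82e-06) was the largest of the 17 probes in the deposited values. After normexp it was 0.53, below the 0.61 of a MID1IP1 probe. The changes at the 2 ACLY probes differed by 0.04 on the log2 scale (SE 0.10), within the spread over arrays (exact two-sided permutation test, n = 6 each, p = 0.74).

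ACSS2 (chr20:34874989-34927959) makes cytosolic acetyl-CoA from acetate, a source that bypasses citrate. It had 4 probes, all of them higher in high glucose. The brightest, ILMN_1714197, read 5046 to 5826 with a median of 5571 in high glucose and 3535 to 4289 with a median of 3864 in low glucose. The groups lay apart at this probe, with means of 5527 ± 289 and 3913 ± 296 (n = 6 each), 1.41-fold (log2 0.50, SE 0.06, limma adjusted p = 1.43e-07). The probe ILMN_2336595 ran from 3882 to 4628 with a median of 4390.4 in high glucose and from 2791 to 3256 with a median of 3126 in low glucose, again without overlap. Its change was 1.40-fold (log2 0.48, SE 0.06, limma adjusted p = 2.63e-07).

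The remaining ACSS2 probes were dim, and their groups overlapped. ILMN_1697510, with means of 129.8 ± 11.97 and 105 ± 16.6 (n = 6 each), had a log2 change of 0.31 (SE 0.09, limma adjusted p = 0.021). This call was lost when high-glucose replicate 4 (log2 0.27, adjusted p = 0.07), low-glucose replicate 5 (0.26, adjusted p = 0.068) or low-glucose replicate 6 (0.25, adjusted p = 0.07) was left out. ILMN_2254962, with means of 122 ± 10.0 and 100.4 ± 8.73 (n = 6 each), had a log2 change of 0.28 (SE 0.08, limma adjusted p = 0.011). After normexp background correction the changes at these 2 probes were larger, 0.48 and 0.44, and passed. The bright probes changed by 0.17 to 0.22 more than the dim ones on the log2 scale, and in none of these 4 pairs did the difference pass (exact two-sided permutation tests, n = 6 each, adjusted p from 0.13 to 0.18).

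The carboxylation of acetyl-CoA to malonyl-CoA is the committed step and has 2 enzymes. ACACA (chr17:37084992-37406836) encodes the cytosolic acetyl-CoA carboxylase 1, whose malonyl-CoA feeds fatty acid synthesis. At its brightest probe, ILMN_2331636, the high-glucose arrays lay between 2145 and 2281 with a median of 2165, and the low-glucose arrays between 1555 and 2085 with a median of 1872. The groups did not overlap, but the highest low-glucose array came close to the lowest high-glucose array, and the low-glucose arrays were spread more widely. The means of 2189 ± 54.0 and 1872 ± 188 (n = 6 each) differed 1.17-fold (log2 0.23, SE 0.07, limma adjusted p = 0.012). Without low-glucose replicate 5, the lowest array, the log2 change was 0.18 (adjusted p = 0.035).

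The probe ILMN_1772123 of ACACA gave 1493 to 1566 with a median of 1541 in high glucose and 1073 to 1438 with a median of 1247 in low glucose. Here too the groups lay apart, and the low-glucose arrays were the more variable (means of 1537 ± 24.7 and 1251 ± 127, n = 6 each). The change was 1.24-fold (log2 0.30, SE 0.07, limma adjusted p = 0.001). The third probe, ILMN_1667641, was dim, with means of 73.7 ± 6.72 and 71.7 ± 4.95, and its change of 0.04 (SE 0.07) did not pass (limma adjusted p = 0.84). It was the probe on which ACACA disagreed with itself. The difference between ILMN_1772123 and ILMN_1667641 was 0.27 on the log2 scale (SE 0.09) and did not pass after adjustment over the 11 pairs of probes of a shared gene (exact two-sided permutation test, n = 6 each, p = 0.013, adjusted p = 0.13).

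ACACB (chr12:109111189-109268226) encodes acetyl-CoA carboxylase 2, which sits at the mitochondrial outer membrane, where its malonyl-CoA restrains fatty acid import for oxidation. Its only probe read 301 to 363 with a median of 313 in high glucose and 221 to 297 with a median of 241 in low glucose. The groups did not overlap, with low-glucose replicate 3 just under the lowest high-glucose array. The means of 325 ± 28.6 and 249.8 ± 31.0 (n = 6 each) differed 1.31-fold (log2 0.38, SE 0.08, limma adjusted p = 0.001). The 2 carboxylases could not be separated by their change, since ACACB changed by 0.15 more than ACACA on the log2 scale and this did not pass (exact two-sided permutation test, n = 6 each, adjusted p = 0.22 over 45 pairs of members).

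MID1IP1 (chrX:38801459-38806532) and THRSP (chr11:78063861-78068351) encode related small proteins that act on the carboxylase. MID1IP1, also called MIG12, promotes the assembly of acetyl-CoA carboxylase into active polymers, and THRSP, known as Spot 14 from its response to thyroid hormone in rat liver, can pair with it. At the brighter MID1IP1 probe, ILMN_2165473, the high-glucose arrays ran from 127 to 206 with a median of 135, and the low-glucose arrays from 91.5 to 134 with a median of 110.2. The groups overlapped, and high-glucose replicate 6 stood above the rest of its group. The means were 149 ± 30.4 and 110.3 ± 14.8 (n = 6 each), 1.34-fold (log2 0.42, SE 0.11, limma adjusted p = 0.005), and without high-glucose replicate 6 the log2 change was 0.32 (adjusted p = 0.017).

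The other MID1IP1 probe, ILMN_1668960, read 122 to 148 with a median of 136 in high glucose and 111 to 124 with a median of 122 in low glucose. The groups overlapped there as well. Its log2 change of 0.18 (SE 0.07) did not pass (limma adjusted p = 0.1), so MID1IP1 rested on 1 of 2 probes. The changes at the 2 probes differed by 0.24 (SE 0.13), which did not pass (exact two-sided permutation test, n = 6 each, p = 0.093, adjusted p = 0.17). THRSP was near the bottom of the intensity range on every array, at 68.3 to 81.7 with a median of 73.0 in high glucose and 61.6 to 74.0 with a median of 68.3 in low glucose. Its groups overlapped, and the log2 change of 0.10 (SE 0.06) did not pass (limma adjusted p = 0.37).

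FASN (chr17:82078338-82098236) encodes fatty acid synthase, the multifunctional enzyme that builds palmitate. Its single probe read 16129 to 19568 with a median of 18042 in high glucose and 12790 to 16421 with a median of 14349 in low glucose. The groups met at 1 array on each side: low-glucose replicate 6 lay above high-glucose replicate 6, while the other 5 high-glucose arrays were above every low-glucose array. The means of 18016 ± 1375 and 14606 ± 1238 (n = 6 each) differed 1.23-fold (log2 0.30, SE 0.06, limma adjusted p = 1.52e-04). When any single array was left out, the log2 change stayed between 0.27 and 0.34 and passed each time.

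ME1 (chr6:83210402-83431051) encodes cytosolic malic enzyme, which turns malate into pyruvate and supplies NADPH to fatty acid synthase. Its probe was dim, at 78.5 to 88.7 with a median of 85.4 in high glucose and 63.6 to 89.5 with a median of 79.0 in low glucose. The groups overlapped almost wholly, low-glucose replicate 5 being the lowest of the 12 arrays. The log2 change was 0.11 (SE 0.08, limma adjusted p = 0.45), and at this intensity no change of ME1 was detected.

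MLYCD (chr16:83899115-83927031) encodes malonyl-CoA decarboxylase, which runs against the pathway by returning malonyl-CoA to acetyl-CoA. Its probe read 223 to 311 with a median of 239 in high glucose and 200.4 to 259.5 with a median of 224 in low glucose. High-glucose replicates 4 and 5 stood above all other arrays and the remaining arrays overlapped. The means of 255 ± 34.6 and 227 ± 24.9 (n = 6 each) gave a log2 change of 0.16 (SE 0.09), which did not pass (limma adjusted p = 0.29).

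**Figure D2:**
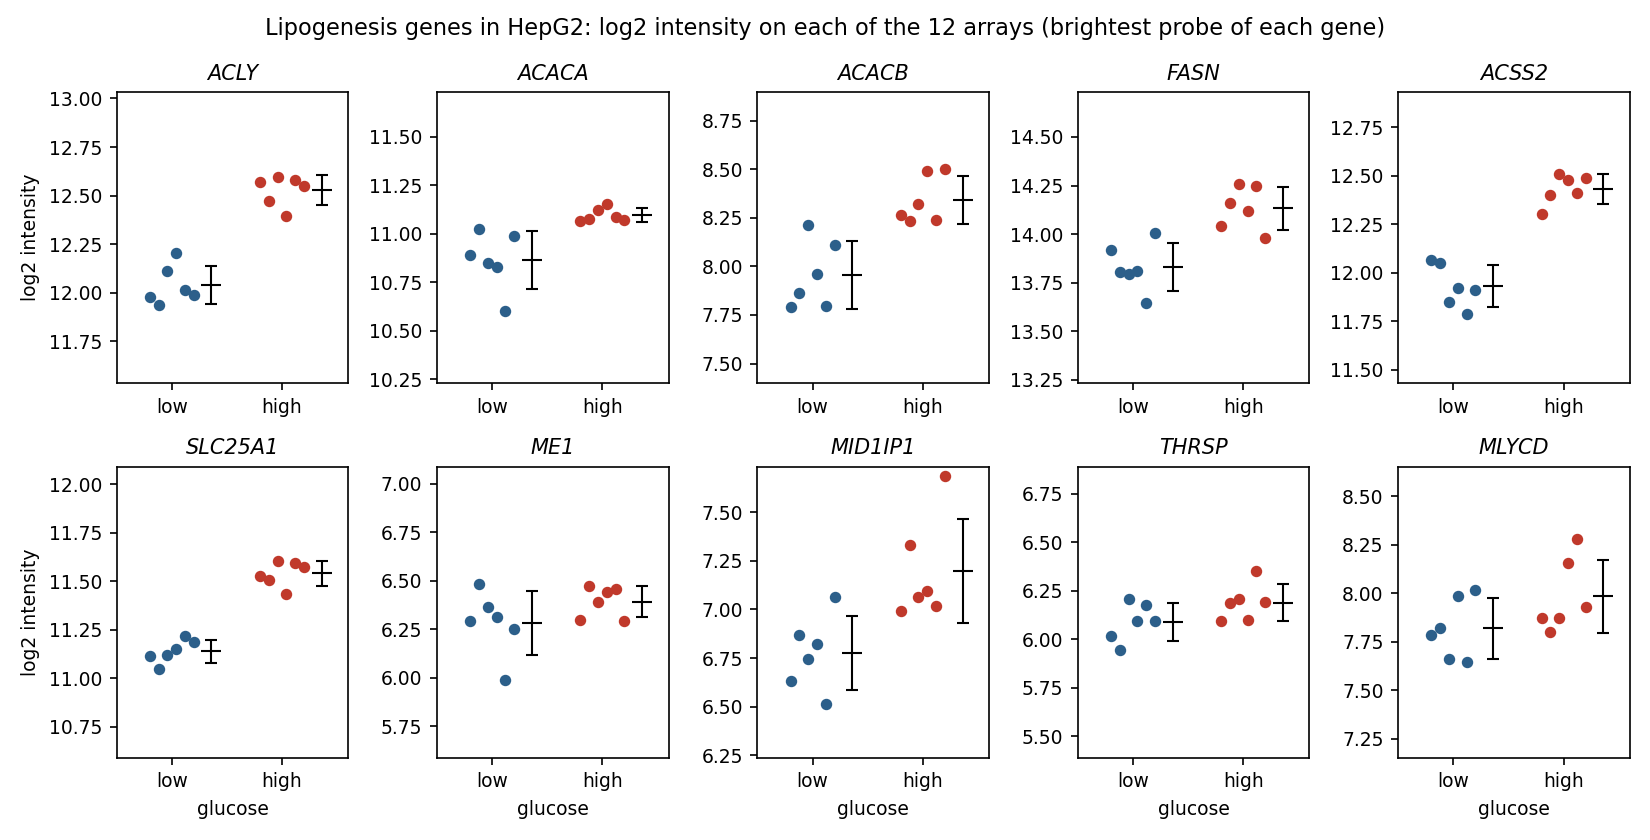
Log2 intensity (y axis, every panel spanning the same log2 range) on each array for the brightest probe of each of the 10 genes, with low glucose on the left and high glucose on the right of each panel, and the mean and SD of 6 arrays as bars. The groups lie apart for ACLY, ACACA, ACACB, ACSS2 and SLC25A1, meet at 1 array on each side for FASN, and overlap for MID1IP1, ME1, THRSP and MLYCD.

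Separation of the groups was therefore complete for 8 of the 17 probes, against 5.67% of all probes on the array in that direction and 4.84% in the other. These were both ACLY probes, the 2 brighter probes of ACACA and of ACSS2, and the probes of SLC25A1 and ACACB. Low-glucose replicate 5 was the lowest of its group at 9 of the 17 probes and high-glucose replicate 3 the highest of its group at 6. Every call among the 10 brightest probes held when each array was left out in turn.

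By size of change at the brightest probe the order was ACSS2 (log2 0.50), ACLY (0.49), MID1IP1 (0.42), SLC25A1 (0.40), ACACB (0.38), FASN (0.30), ACACA (0.23), MLYCD (0.16), ME1 (0.11) and THRSP (0.10). No neighbours in this order differed beyond the spread over arrays. The order itself depends on background: after normexp MID1IP1 (0.61) came before ACSS2, ACACB (0.45) before SLC25A1 (0.41), and ME1 and THRSP (0.22 each) before MLYCD (0.20). All 45 pairs of members were compared by the per-array difference of their log2 intensities, and 7 passed (exact two-sided permutation tests, n = 6 each, adjusted over the 45 pairs, with 0.0022 the smallest p these arrays allow). At the brightest probes, ACSS2 changed more than ACACA by 0.27 (adjusted p = 0.024) and more than FASN by 0.20 (adjusted p = 0.042) in these permutation tests. The dim ACSS2 probes ILMN_1697510 and ILMN_2254962 changed by 0.31 and 0.28, beside the 0.30 of FASN, and by 0.48 and 0.44 after normexp. They were not tested against other genes. The other 5 pairs set a bright probe against ME1 or THRSP, whose probes read below the array median, where background narrows a log2 change, so these differences do not show that the genes responded differently: ACLY over ME1 by 0.38 (permutation adjusted p = 0.042) and over THRSP by 0.39 (0.024), ACSS2 over ME1 by 0.39 (0.024) and over THRSP by 0.40 (0.039), and SLC25A1 over THRSP by 0.30 (0.024).

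**Figure D3:**
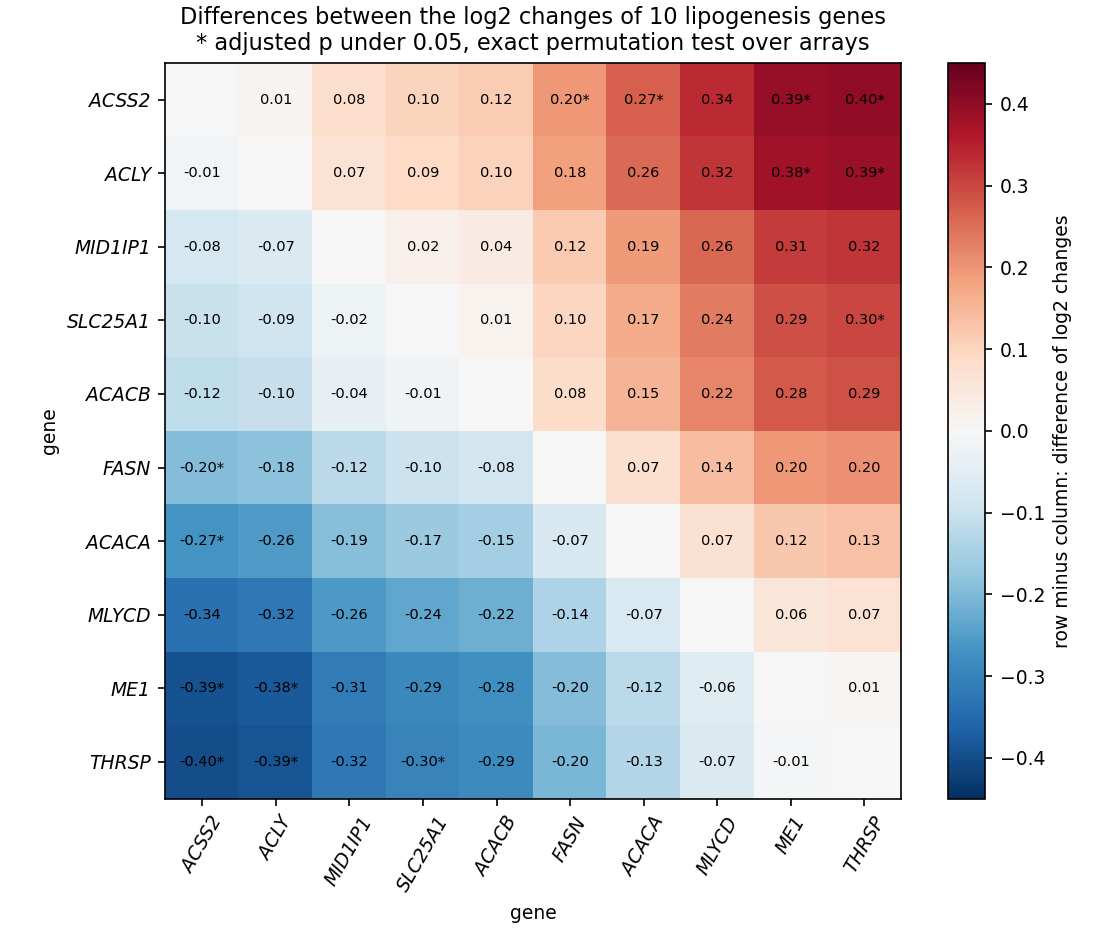
Difference between the log2 changes of each pair of genes (row minus column, colour and printed value), ordered by the size of the change, with an asterisk where the exact permutation test passed at an adjusted p under 0.05. The 7 passing pairs all involve ACSS2, ACLY or SLC25A1, and the squares next to the diagonal, between neighbours in the order, hold none.

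The count of passing pairs moved with the processing. An exact permutation p cannot fall below a floor set by the number of arrays. Whether a pair passes after adjustment therefore also depends on how many other pairs lie near that floor. The counts below thus do not measure how stable the differences are. After normexp background correction 0 of 45 pairs passed. The differences of the bright pairs were then nearly as before (ACACA minus ACSS2 at -0.27, and FASN minus ACSS2 at -0.20, permutation adjusted p = 0.097 for each), whereas those against the dim probes shrank (ACLY over THRSP at 0.27, permutation adjusted p = 0.24). With single arrays left out, 4 to 8 pairs passed, and with fewer arrays the floor of the permutation p is higher. The pairs ACACA with ACSS2, ACLY with THRSP, ACSS2 with ME1 and SLC25A1 with THRSP passed each time. MLYCD, the enzyme of the reverse step, changed less than ACSS2 by 0.34 (permutation adjusted p = 0.076) and less than ACLY by 0.32 (permutation adjusted p = 0.083), and neither difference passed.

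Genes around the core route were mixed, with some higher, some lower and most not passing. Calls in both directions were common over the whole array too. By the brightest probe, 15.4% of all named genes were higher and 12.2% were lower, the shares to set beside the counts of these lists. Of 13 measured genes that supply acetyl-CoA, citrate or malate, 11 did not pass, 2 were higher and 0 were lower (median log2 change 0.07). The 2 were SLC25A10, the mitochondrial dicarboxylate carrier (log2 0.67, SE 0.07, limma adjusted p = 1.4e-08), and ACSS1, the mitochondrial counterpart of ACSS2 (0.61, SE 0.11, limma adjusted p = 8.1e-05). Of 9 other genes of NADPH supply, 1 was higher and 2 were lower (median 0.03). NADK, the kinase that makes NADP, was higher (log2 0.32, limma adjusted p = 0.0034), and ALDH1L1, a folate enzyme (-0.58, limma adjusted p = 8.7e-08), and PGLS, of the pentose phosphate route (-0.30, limma adjusted p = 0.00081), were lower.

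Of 10 genes that attach cofactors to the carboxylases and FASN or control them, 3 were higher and 3 were lower (median 0.12). AMP-activated protein kinase, which phosphorylates and inhibits both carboxylases, contributed in both directions: its subunit genes PRKAB1 (log2 0.54, limma adjusted p = 1.3e-06) and PRKAB2 (0.42, limma adjusted p = 0.00011) were higher, and PRKAA2 (-0.62, limma adjusted p = 1.9e-05), PRKAG1 (-0.40, limma adjusted p = 2.6e-05) and PRKAA1 (-0.21, limma adjusted p = 0.031) were lower, the last 2 being named after their values were seen. For PRKAA1 only 1 of 2 probes passed, and the groups overlapped there. In the separate mitochondrial pathway of fatty acid synthesis, 2 of 7 genes were higher, CBR4 (log2 0.47, limma adjusted p = 0.00012) and OXSM (0.43, limma adjusted p = 4.9e-05). LIAS, which makes lipoic acid from the pathway's product, was lower (-0.30, limma adjusted p = 0.018), with overlapping groups and 1 of its 2 probes passing. Of 11 genes that use palmitate or respond to malonyl-CoA, 3 were higher and 2 were lower (median 0.01). ELOVL6, which lengthens palmitate, was higher by 0.86 (SE 0.06, limma adjusted p = 5.1e-11) beside the 0.50 of ACSS2, a difference that was not tested, and SCD, the desaturase of the next step, by 0.35 (limma adjusted p = 5.3e-05). CPT1A, the mitochondrial import enzyme that malonyl-CoA inhibits, was lower by 0.32 on the log2 scale at its brightest probe (limma adjusted p = 0.0017). The groups overlapped there, and only 1 of the 3 CPT1A probes passed.

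**Figure D4:**
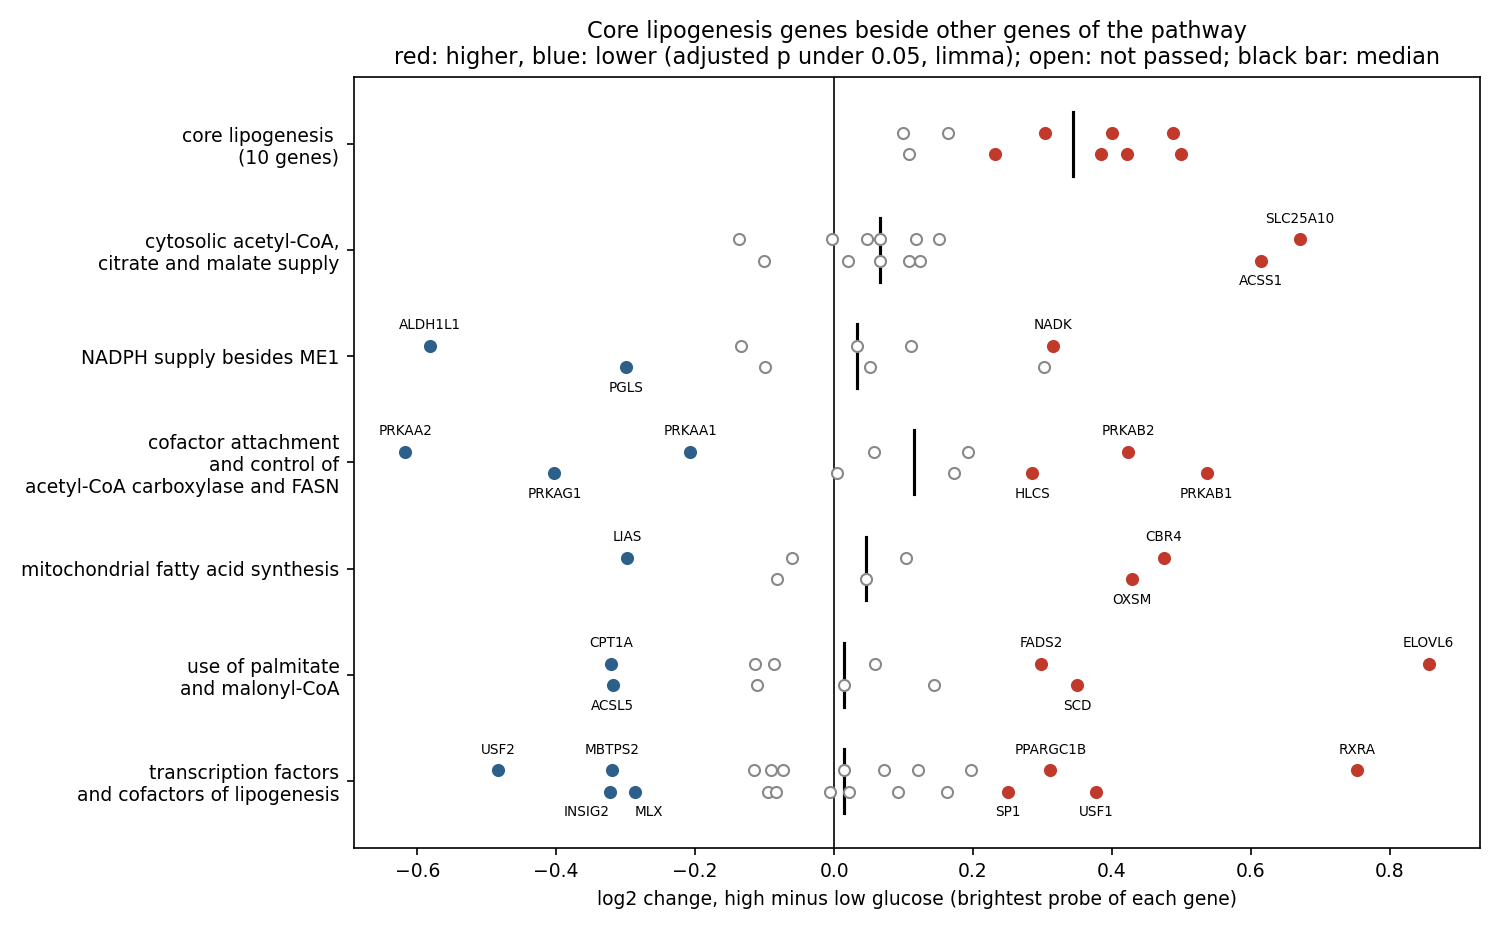
Log2 change (x axis, high minus low glucose, brightest probe) of the 10 core genes and of the genes of 6 related lists, with red for higher, blue for lower, open circles for genes that did not pass, a black bar for the median of each row, and a name at every passing gene outside the core. The core row lies wholly to the right of 0 with a median of 0.34, and the other 6 rows have medians between 0.01 and 0.12 with genes on both sides of 0.

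Among 21 transcription factors and cofactors of lipogenesis, 4 were higher and 4 were lower, with 13 that did not pass (median 0.02). SREBF1 did not pass, with means of 647 ± 37.1 in high and 688 ± 62.4 in low glucose (n = 6 each, log2 -0.08, SE 0.07, limma adjusted p = 0.58). By qRT-PCR the study reported a strong increase of SREBP-1c mRNA in high glucose. Of the 3 SREBF1 probes, 0 were higher and 0 were lower. Which SREBF1 transcripts the probes read was not analysed, so their values do not speak for SREBP-1c alone. MLXIPL, at 1075 ± 53.7 and 941 ± 93.9 (n = 6 each), was close to the threshold without passing it (log2 0.20, SE 0.07, limma adjusted p = 0.057). RXRA, the partner of the liver X receptors, was higher (log2 0.75, limma adjusted p = 1.3e-09). The E-box factors USF1 (0.38, limma adjusted p = 0.00062) and USF2 (-0.48, limma adjusted p = 7e-06) went in opposite directions.

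The cells carried the markers of their label. All 9 measured hepatocyte and hepatoma markers had mean intensities between 2682 and 27903, with 1 higher (FGB) and 1 lower (APOB), and their summed intensity was 124217 to 140840 in high glucose and 123208 to 133549 in low glucose. Of 4 adipocyte markers, ADIPOQ and PLIN1 were at 83.0 and 74.4, near the bottom of the range, and LEP was at 155. The summed adipocyte markers were 2388 to 3009 in high and 1334 to 1589 in low glucose, through CIDEC (log2 1.08). The 3 leukocyte markers summed to 607 to 706 and 439 to 494, through CD14 (0.68), with PTPRC and CD3E at 89.4 and 86.8. The 4 fibroblast and endothelial markers summed to 422 to 473 and 395 to 467, with 1 higher (VWF, mean 67.7). Their part in the changes of the members was not tested. Arrays of a group correlated at 0.992 to 0.995 and arrays of different groups at 0.985 to 0.988 over all probes, and by this measure no array stood apart. It does not cover the member probes alone, where low-glucose replicate 5 was the lowest of its group at 9 of 17.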

How the data were processed

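RNA of 6 high- and 6 low-glucose HepG2 cultures was measured on 12 arrays. The values the authors deposited are linear probe intensities, quantile normalized across arrays: sorted columns differ by at most 1.67%. The lowest intensity is 47.2, so background had not been subtracted, and the number of arrays limits the precision. The submitters' processing notes name GenomeStudio 2010.1, and the methods name limma and Cyber-T without settings. The methods call the replicates biological, and no slide or date is given in the sources used here. A table of signals before normalization holds 24 columns of per-sample values whose names match no sample, and it was not used. These columns include detection p-values, which could not be tied to samples and were not used here.

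Probes were named through the platform annotation, updated by gene ID: 28098 probes have 1 symbol, 13 have several and 20692 have none. Log2 intensities, with no pseudocount and no filter, of all 48803 probes were fitted without a block by lmFit and trended eBayes (limma 3.58.1, R 4.3.3), and a probe passed at a Benjamini-Hochberg adjusted p under 0.05. Standard errors are those of the fit, SDs are of linear intensities, and fold changes are ratios of geometric means. Genes outside the core were taken by their brightest probe. Differences between probes of a gene and between members were tested with exact permutation tests over the 12 arrays (scipy 1.17.1). The fit was tested on simulated data.

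All 10 members were named, with up to 3 passing genes of each related list by size of change, SREBF1 and MLXIPL. The members and lists were chosen with earlier results of these data known. The marker genes named were picked after their values were seen. Gene positions and promoters are from RefSeq, GRCh38.p14, and probe positions within transcripts were not analysed here. Alternatives were a pseudocount of 16, a filter at an intensity of 100 on 6 arrays, normexp with an offset of 16, a test in the manner of Cyber-T (window of 101 probes, prior weight 10), eBayes without a trend, array weights, a replicate block, other probe choices, an adjusted p under 0.01, a fold of 1.5, and leaving out each array.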

Additional observations from a re-analysis of the deposited data

Results flagged for a closer look

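At the ACSS2 probe ILMN_2336595, low-glucose replicate 5 read 2790.9, and the next low-glucose array read 3083. Its gap to the others was 0.629 of the range of the group, just above Dixon's critical value for 6 samples. It was the only such sample in 34 groups tested (17 probes in 2 conditions), where chance alone marks about 1 in 20 groups. Without it the groups at this probe remained apart, since it was the lowest array of the lower group.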

How the results depend on the processing

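Among the 10 brightest probes, every direction, and every call at an adjusted p under 0.05, held under each alternative that could be run for that probe, apart from the 2 stricter thresholds. With a fold of 1.5 required as well in the uncorrected values, 1538 of all probes passed in place of 7904, with 0 member probes and 0 member genes higher. With an adjusted p under 0.01, 6026 of all probes changed, and 9 member probes and 6 member genes were higher, ACACA being the gene lost. With single arrays left out, 11 to 12 member probes and 7 member genes were higher. Among the other probes, the dim ACACA probe ILMN_1667641 turned to a log2 change of -0.007 without high-glucose replicate 3 (adjusted p = 0.97, limma; up to 0.062 with other single arrays left out), and the MID1IP1 probe ILMN_1668960 passed with eBayes without a trend (0.18, adjusted p = 0.048, limma). After normexp the log2 change of MID1IP1 ILMN_2165473 was 0.61, past 1.5-fold, and those of ME1 and THRSP, which still did not pass, were 0.22 each. Of the 45 pairs of members, 7 passed, with 12 passing after a pseudocount of 16 was added, 0 after normexp, and 4 to 8 with single arrays left out. The cause of these shifts was not tested. No pair of probes of a gene passed under any alternative run.

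No pairing by replicate number was seen. Deviations from the group means of same-numbered arrays correlated at -0.04 to 0.01 (0 of 6 pairs over 0.1), and 3 of 12 arrays correlated best with their own number. Whether the numbers pair cultures is not stated in the sources used here, and this measure cannot settle it. With the replicate block, 7760 probes, 12 member probes and 7 member genes changed, and no member's call differed. Intensity near the background limits ME1, THRSP and the dim ACACA probe, for which no change was detected.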
